A study of Mus musculus with 5 samples.

Results

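Pthlh, Pth1r, Ihh, Ptch1, Smo, Gli1, Gli2, Gli3 and Hhip are the genes of the feedback loop that sets the pace of cartilage growth, and they are described here in every cell class of the mouse growth plate region and by genotype label. They were chosen by name, for their place in the loop and not for their levels, though earlier results of these data were known. All 9 were present among the 29818 genes counted. Indian hedgehog (encoded by Ihh) is made by chondrocytes that have left the cell cycle and are about to enlarge. It binds Patched (Ptch1) on neighbouring cells, which frees Smoothened (Smo) and lets the Gli transcription factors act. Ptch1, Gli1 and Hhip are themselves switched on by the signal, and Hhip binds and holds the ligand. Parathyroid hormone-related protein (PTHrP, encoded by Pthlh) is made near the joint end of the cartilage, where hedgehog signalling sustains it, and acts through its receptor Pth1r to hold chondrocytes in the dividing state.

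Cells were isolated from the epiphyses of the proximal tibia and distal femur of 5 C57BL/6J littermates, 1 library per pup, by BD Rhapsody HT Express capture, in which each transcript carries a unique molecular identifier (UMI) so that copies of 1 molecule are counted once. Pups 1 and 2 were labelled wild type (WT). Pups 3, 4 and 5 were labelled mutant, which in the study means 1 allele of Trpv4 recombined by a Col2a1-Cre transgene, active in chondrocytes, to carry the activating p.R594H change beside 1 normal allele. The study states that its Cre line began on a B6SJLF1 background and was crossed 2 times to C57BL/6J, so the litter may not be pure C57BL/6J. The age was day 5 after birth in the labels, whereas the study's text gives an earlier day. The genotype of the WT pups for Cre and for the unrecombined allele was not given in the labels. The counts per gene do not show which allele a Trpv4 transcript came from, so the labels could not be checked against the mutation.

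The files held between 14003 and 19589 cells per pup and between 117746735 and 183322632 UMIs. After filtering, 82516 cells remained. Median UMIs per cell were 9261 and 8521 with the WT label and 6657, 6000 and 7016 with the mutant label, so depth was lower in every pup labelled mutant. Xist, the RNA of the inactive X chromosome, was detected in 89.8% and 88.4% of cells from pups 3 and 4 and in at most 0.174% of cells from the others, and the labels give no sex. The Y-linked gene Ddx3y was detected in 67.6%, 70.1% and 66.3% of cells from pups 1, 2 and 5. In pups 3 and 4 it was detected in 0.758% and 0.492%. By these genes pups 1, 2 and 5 were male and pups 3 and 4 female. No pup labelled WT was female, so label and sex partly coincide in every comparison of the labels. Each pair of libraries shared between 3 and 7 cell barcodes. The automatic doublet caller marked 0 cells in pups 1 and 5 and between 418 and 490 in the others, so the cells it marked were kept and removed only as an alternative.

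Clustering without the 9 genes and without the rest of their pathways gave 38 clusters, of which 35 were named from markers and 3, with 6359 cells, were not. The names mean likeness to a marker list and no more. The 302 hypertrophic-like chondrocytes held Col10a1, the collagen of enlarged chondrocytes, at 30282 ± 3845 CPM (UMI counts scaled to a common total; SD, n = 5 pups), against 1215 ± 797 CPM in the 1736 prehypertrophic-like chondrocytes. The cluster of the former scored highest for the prehypertrophic list and took the hypertrophic name only after the naming rule was loosened. Ucma marked the 17266 resting-like chondrocytes at 6238 ± 1118 CPM, and Prg4, the lubricant of the joint surface, marked the 14059 articular-like chondrocytes at 16937 ± 3979 CPM. All 6 resting-like clusters scored higher for the proliferating marker list and took their name as the next candidate, so that the border of these 2 classes is soft. Of the 14976 tendon-like cells, 3901 (26%) lay in a cluster whose 10 leading genes, such as Top2a, belong to the cell cycle. The 7074 perichondrial-like cells held Col2a1, which the study used to tell chondrocytes from other cells, at 45498 ± 14015 CPM. It was at 6995 ± 2922 CPM in fibroblast-like cells and 68741 ± 5289 CPM in proliferating-like chondrocytes. The larger perichondrial-like cluster, with 3572 cells, scored only 0.523 for its list, so this name is soft too. The cluster led by Ibsp, a bone matrix gene, kept no name. A blood lineage class of 2519 cells, with a median of 7215 UMIs, served as the background, since free RNA can give any cell a UMI.

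By GENCODE M21 on GRCm38, the ligand genes lie on the reverse strand at chr6:147252101-147264183 (Pthlh) and chr1:74945315-74951672 (Ihh). The receptor genes lie on the reverse strand at chr9:110722085-110747145 (Pth1r) and chr13:63508328-63573598 (Ptch1), and Smo lies on the forward strand at chr6:29735503-29761365. The factors lie at chr10:127329882-127341974 (Gli1, reverse), chr1:118834132-119053619 (Gli2, reverse) and chr13:15463235-15730026 (Gli3, forward), and Hhip at chr8:79965851-80058006 on the reverse strand. Other annotated genes overlap all of them but Pthlh and Ihh, among them Myl3 with Pth1r and Arhgap9 with Gli1 on the opposite strand. Whether the authors counted by strand is not given in the sources used here, so reads of overlapping genes could not be told apart.

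Promoter windows of 300 bases, from 250 before the start of transcription to 50 after it, were taken from RefSeq (GRCm38.p6) for 8 of the 9 genes, and Gli1 had no entry. Ihh, the ligand, Ptch1, the receptor that answers it, and Gli2, a factor between them, are shown 5′ to 3′ because they stand for the sending, receiving and transducing steps of the loop. Capitals mark the core of the Gli binding site (ACCACCC, or GGGTGGT when read from the other strand).
Ihh, chr1:74951623-74951922, reverse strand: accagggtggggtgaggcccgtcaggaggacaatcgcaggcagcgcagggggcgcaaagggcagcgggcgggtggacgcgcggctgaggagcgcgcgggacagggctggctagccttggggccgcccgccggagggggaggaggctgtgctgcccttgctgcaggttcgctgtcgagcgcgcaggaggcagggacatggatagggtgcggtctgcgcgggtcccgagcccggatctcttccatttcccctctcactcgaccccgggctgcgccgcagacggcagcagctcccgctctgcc
Ptch1, chr13:63565686-63565985, reverse strand: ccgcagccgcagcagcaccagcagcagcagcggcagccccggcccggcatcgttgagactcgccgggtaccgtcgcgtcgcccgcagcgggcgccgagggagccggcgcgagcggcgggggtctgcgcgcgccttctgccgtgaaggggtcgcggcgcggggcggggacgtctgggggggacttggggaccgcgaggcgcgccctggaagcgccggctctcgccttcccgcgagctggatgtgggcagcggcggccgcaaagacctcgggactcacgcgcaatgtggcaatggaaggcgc
Gli2, chr1:119053570-119053869, reverse strand: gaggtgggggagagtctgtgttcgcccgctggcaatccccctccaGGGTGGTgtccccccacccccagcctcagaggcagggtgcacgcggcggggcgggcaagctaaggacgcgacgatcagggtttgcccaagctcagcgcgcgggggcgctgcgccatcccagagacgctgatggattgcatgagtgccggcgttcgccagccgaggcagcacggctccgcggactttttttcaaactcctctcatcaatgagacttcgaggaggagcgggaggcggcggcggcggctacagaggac
Of the 10 windows of the 8 genes, 1 held the core, that of Gli2, at base 46 on the other strand. Across all 32851 promoter windows, 1514 (4.61%) held it on either strand. The windows were rich in G and C, at 72.67% for Ihh, 76.33% for Ptch1 and 67.33% for Gli2, against a median of 52.67% over all windows. The Ptch1 window lies inside the gene as annotated by GENCODE, which starts at chr13:63573598 on the reverse strand. It therefore shows another start, and the sequence at the GENCODE start was not searched. A match of these letters is a description and not a bound site.

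The ligand Ihh was high in a small group of cells and low elsewhere. In hypertrophic-like chondrocytes its level was 387 and 639.6 CPM in pups 1 and 2 and 592, 612 and 578 CPM in pups 3, 4 and 5. In prehypertrophic-like chondrocytes it was 123 and 225 CPM, and 241, 196 and 144 CPM. Every pup had a higher Ihh level in the former class than in the latter, without overlap between the classes, and in both pup 1 was lowest.

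The next class in the order was the proliferating-like chondrocytes, at 5.77 and 5.85 CPM in the pups labelled WT and 17.9, 13.9 and 7.18 CPM in those labelled mutant. These values overlapped those of the blood lineage cells, which ranged from 0.584 to 9.47 CPM. Prehypertrophic-like chondrocytes made up 2.10% of the cells and held 57.9% of the 15798 Ihh UMIs, and hypertrophic-like chondrocytes made up 0.366% of the cells and held 30.5%. The cluster with the most Col10a1 also held the most Ihh of all clusters under all 7 cell and clustering settings tried, at 514 to 578 CPM, although its marker-based name was prehypertrophic at a Leiden resolution of 0.8 and absent at 2.5.

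Depth differed between these classes, since the median hypertrophic-like cell held 27867 UMIs and the median resting-like cell 7633.5. With each cell thinned to 4000 UMIs, 67.8% ± 7.64 (SD, n = 5 pups) of the hypertrophic-like cells had an Ihh UMI, against 88.1% before thinning. In prehypertrophic-like cells the share was 36.8% ± 10.1, against 69.8% before thinning. The shares in proliferating-like cells (2.92%) and blood lineage cells (0.353%) were far lower, at 9.31% and 0.852% before thinning. Thus Ihh was found in part of the prehypertrophic-like cells and in most of the hypertrophic-like ones at equal depth.

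**Figure D1:**
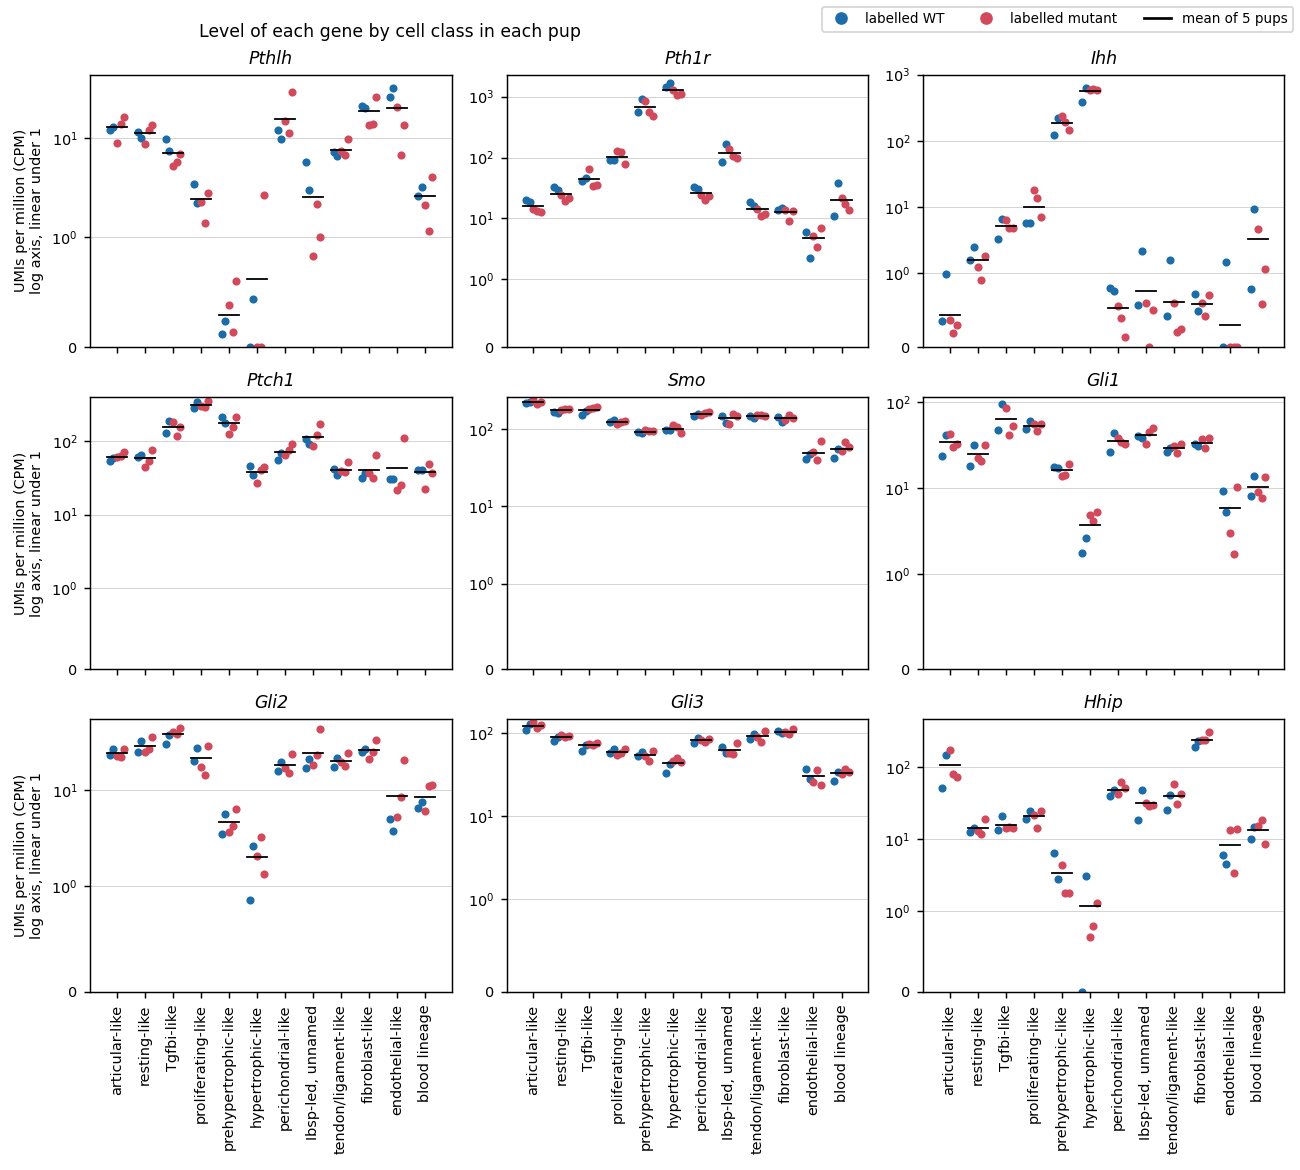
Level of each gene of the loop by cell class, in CPM of UMIs summed per class and pup, on a log axis that is linear under 1, with 1 point per pup coloured by label and a line at the mean of 5 pups. Ihh and Pth1r stand highest in the hypertrophic-like and prehypertrophic-like chondrocytes, Ptch1 in the proliferating-like chondrocytes and Hhip in the fibroblast-like cells, and Pthlh lies at or under 32.7 CPM in all classes.

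The other ligand, Pthlh, was sparse everywhere, with 6102 UMIs in all. Resting-like chondrocytes held 11.5 and 9.98 CPM in the pups labelled WT and 8.69, 12.3 and 13.7 CPM in those labelled mutant. Articular-like chondrocytes held 12.3 and 13.0 CPM, and 8.94, 14.1 and 16.3 CPM. The ranges of the 2 classes overlapped, the articular-like level was the higher one in each of the 5 pups, and in both pup 3 was lowest and pup 5 highest.

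Fibroblast-like cells, marked by Dpt, held 21.1 and 20.1 CPM of Pthlh in the pups labelled WT and 13.8, 14.0 and 26.0 CPM in those labelled mutant. Perichondrial-like cells varied more, at 12.3, 9.83, 15.1, 11.3 and 29.8 CPM in pups 1 to 5, pup 5 standing above the others. The perichondrial-like range overlapped those of the articular-like and resting-like chondrocytes. The fibroblast-like range overlapped the articular-like one and lay wholly above the resting-like one. In the tendon-like class, the cluster led by cell cycle genes held 8.19 ± 1.03 CPM.

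At the other end, prehypertrophic-like chondrocytes held between 0.122 and 0.599 CPM of Pthlh in the 5 pups, below the blood lineage cells at 2.63 ± 1.09 CPM. The highest class mean, 20.1 ± 10.2 CPM in endothelial-like cells, rested on 106 UMIs in 523 cells and fell to 12.5 ± 12.5 CPM, with 41 UMIs in 435 cells, once the 5% of cells with the highest doublet scores were removed. Fibroblast-like cells then came first, as they did, at 19.0 against 18.7 CPM, when the cells called doublets were removed.

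Within the classes Pthlh was uneven. The highest of the 38 clusters was a fibroblast-like cluster of 1033 cells led by Htra4, Tspan15 and Clic5, with 50.2, 40.9, 28.7, 39.5 and 53.7 CPM in pups 1 to 5. Among the 6 resting-like clusters the mean ran from 3.59 CPM to 24.1 ± 8.32 CPM. The highest of these was led by Fos, Zfp36 and Egr1, immediate early genes that also rise when tissue is dissociated, and the second highest cluster of all, tendon-like with 28.1 ± 7.53 CPM, was led by heat shock genes such as Hspa1b. The part of the dissociation response in these levels was not tested.

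At 4000 UMIs, 3.35% ± 0.781 of the resting-like cells, 3.82% of the articular-like cells, 4.49% of the perichondrial-like cells and 5.00% ± 0.977 of the fibroblast-like cells had a Pthlh UMI (SD, n = 5 pups). Before thinning the shares were 5.86%, 5.42%, 7.52% and 7.70%. The blood lineage cells were at 0.702%, or 1.42% before thinning, and the prehypertrophic-like cells at 0.0386%. Of all Pthlh UMIs, 26.4% came from resting-like, 18.5% from articular-like, 13.6% from tendon-like, 13.3% from perichondrial-like and 12.5% from fibroblast-like cells, so no single class held most of the transcript.

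The receptor of PTHrP, Pth1r, was highest in the cells that held Ihh. Its level in hypertrophic-like chondrocytes was 1425 and 1654 CPM in the pups labelled WT and 1263, 1047 and 1092 CPM in those labelled mutant. In prehypertrophic-like chondrocytes it was 551 and 901 CPM, and 832, 562 and 477 CPM. The hypertrophic-like level was above the prehypertrophic-like level in each of the 5 pups, without overlap.

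Pth1r then fell away over the remaining cartilage. The cluster led by Ibsp held 119 ± 33.8 CPM and the proliferating-like chondrocytes 90.2, 91.9, 128, 124 and 79.1 CPM in pups 1 to 5, and these ranges overlapped. Resting-like chondrocytes held 32.4, 29.6, 24.4, 19.2 and 21.4 CPM, inside the range of the blood lineage cells, which was 11.1 to 37.6 CPM. The step from resting-like to proliferating-like chondrocytes was upward in all pups.

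Equal depth left this order in place. A Pth1r UMI was found in 93.1% ± 2.07 of the hypertrophic-like cells, 79.0% ± 9.10 of the prehypertrophic-like cells, 28.7% of the cells of the Ibsp-led cluster and 27.9% of the proliferating-like cells thinned to 4000 UMIs. Blood lineage cells gave 3.7%. Unthinned, the shares were 95.6%, 99.2%, 45.9%, 64.0% and 6.36%, in which the prehypertrophic-like cells passed the hypertrophic-like ones. Resting-like cells gave 9.39% ± 1.78 when thinned, above the blood lineage cells without overlap, and 18.0% unthinned. Of the 71070 Pth1r UMIs, 46.8% lay in prehypertrophic-like, 15.8% in hypertrophic-like and 17.7% in proliferating-like chondrocytes.

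**Figure D2:**
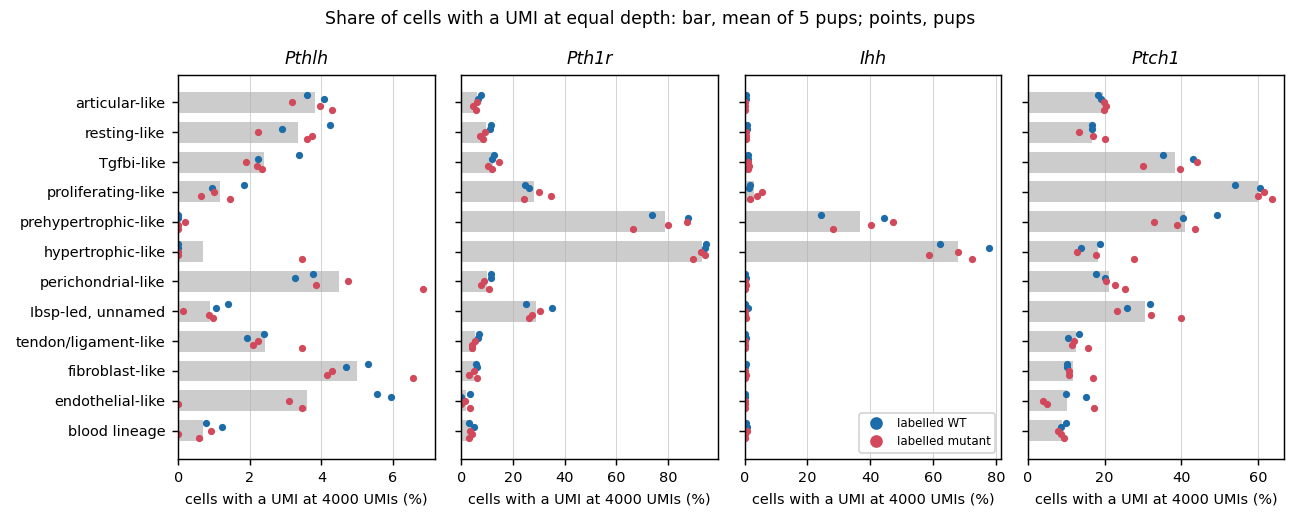
Percent of cells with a UMI of Pthlh, Pth1r, Ihh and Ptch1 (x axes) by cell class (y axis) after every cell was thinned to 4000 UMIs, with the mean of 5 pups as a bar from 0 and 1 point per pup, coloured by label. For Ihh and Pth1r the hypertrophic-like and prehypertrophic-like cells lie far above the blood lineage cells, at 67.8% and 36.8% for Ihh and 93.1% and 79.0% for Pth1r, and Pthlh stays near or under 5.00% in each class on average.

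Ptch1, both receptor and response gene of hedgehog, was highest in proliferating-like chondrocytes. There it stood at 284 and 347 CPM in the pups labelled WT and 302, 293 and 352 CPM in those labelled mutant. Prehypertrophic-like chondrocytes held 214, 179.6, 125, 159 and 218 CPM in pups 1 to 5, and hypertrophic-like chondrocytes 46.2, 34.5, 27.0, 40.1 and 45.0 CPM. Each step was downward in all 5 pups, and the last class overlapped the blood lineage cells, which had a mean of 37.7 CPM.

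The Tgfbi-marked chondrocytes held 156 ± 32.3 CPM of Ptch1 and the Ibsp-led cluster 117 ± 34.2 CPM, both overlapping the class above them in the order. Resting-like chondrocytes were at 60.1 CPM on average, but their 6 clusters spanned 34.1 to 182 CPM, the last in a cluster of 979 cells led by Sfrp5. This Wnt antagonist is in the resting marker list. By class it was no higher in resting-like (109 ± 63.7 CPM) than in proliferating-like (143 ± 51.4 CPM) or Tgfbi-marked chondrocytes (135 ± 67.2 CPM). The Sfrp5-led cluster was among those that scored higher for the proliferating list. That cluster held 151, 151, 122, 217 and 270.4 CPM of Ptch1 in pups 1 to 5, from 323, 323, 110, 8 and 215 cells, so the value of pup 4 rests on 8 cells. Proliferating-like chondrocytes made up 8.44% of the cells and held 49.4% of the 81746 Ptch1 UMIs. At 4000 UMIs, 59.9% ± 3.57 of them had a Ptch1 UMI, against 41.1% of prehypertrophic-like, 18.2% of hypertrophic-like and 8.83% of blood lineage cells, and against 88.7%, 85.6%, 49.5% and 15.4% before thinning. With a mitochondrial limit of 20% in place of 10%, the clusters fell differently, and the prehypertrophic-like class (264 CPM) stood above the proliferating-like class (184 CPM).

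Smo, the transducer, was found in every class. It ran from 214, 219.8, 237, 213 and 221 CPM in the articular-like chondrocytes of pups 1 to 5 to 173 ± 9.0 CPM in resting-like and 92.5 ± 3.17 CPM in prehypertrophic-like chondrocytes, with blood lineage cells at 55.1 ± 9.29 CPM. Articular-like chondrocytes were above the class next to them in all 5 pups, whereas the classes that followed, down to the pericyte-like cells, each overlapped the next. Within that run, resting-like cells stood above perichondrial-like cells and these above tendon-like cells in 5 of 5 pups. Pericyte-like cells (89.3 ± 5.25 CPM) were above the blood lineage cells in all 5 pups, without overlap. At equal depth, 57.7% ± 2.10 of articular-like and 31.3% ± 1.90 of prehypertrophic-like cells had a Smo UMI, against 16.6% of blood lineage cells.

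Gli1, the factor whose transcript rises with hedgehog signalling, followed Ptch1 in part. The Tgfbi-marked chondrocytes held 46.9, 93.5, 85.0, 41.4 and 51.8 CPM in pups 1 to 5 and the proliferating-like chondrocytes 48.3, 59.3, 54.7, 46.3 and 55.7 CPM. The classes overlapped, pups 2 and 3 standing above the rest in the former. In prehypertrophic-like chondrocytes Gli1 was at 16.2 ± 2.27 CPM, and in hypertrophic-like chondrocytes it was at 3.71 ± 1.49 CPM, with no pup above its own blood lineage level and a blood lineage mean of 10.3 CPM.

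Gli2, which carries most of the activator function, was highest in the Tgfbi-marked (39.0 ± 5.40 CPM) and resting-like chondrocytes (29.6 ± 5.14 CPM). It was at 4.68 ± 1.26 CPM in prehypertrophic-like and 2.03 ± 0.968 CPM in hypertrophic-like chondrocytes, both with no pup above its own blood lineage level. Gli3, which acts mainly as a repressor, was highest in articular-like chondrocytes at 109.5, 129, 135, 116 and 125 CPM in pups 1 to 5. It was at 54.7 ± 5.73 CPM in prehypertrophic-like and 43.6 ± 6.55 CPM in hypertrophic-like chondrocytes, against 32.9 ± 4.08 CPM in blood lineage cells. At 4000 UMIs, a Gli2 UMI was found in 10.7% of resting-like, 2.04% of prehypertrophic-like and 3.07% of blood lineage cells, and a Gli3 UMI in 28.5%, 19.1% and 8.76% of them.

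Hhip, the ligand-binding antagonist, was lowest where Ihh was highest. Fibroblast-like cells held 186 and 230.4 CPM in the pups labelled WT and 233, 236 and 301 CPM in those labelled mutant, above every other class in each pup. Articular-like chondrocytes followed with 51.1 and 148 CPM, and 171, 80.5 and 73.1 CPM, a spread that did not follow the label. Prehypertrophic-like chondrocytes held 3.42 ± 1.95 CPM and hypertrophic-like chondrocytes 1.18 ± 1.15 CPM, with no pup above its own blood lineage level (mean 13.4 ± 3.89 CPM).

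The same fibroblast-like cluster that led for Pthlh, with Htra4 among its leading genes, led for Hhip at 688 ± 133 CPM. Within the articular-like class the 5 clusters ran from 17.3 to 314 CPM, and the 2 highest were led by Prg4 and Cilp, genes of the joint surface. Fibroblast-like cells held 30.1% and articular-like cells 27.1% of the 32547 Hhip UMIs. At equal depth, 27.7% ± 4.91 of fibroblast-like, 19.4% ± 7.88 of articular-like and 3.30% of blood lineage cells had a Hhip UMI, against 31.5%, 24.4% and 5.01% before thinning.

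These levels are descriptions. With 5 pups, no 2-sided exact paired test between classes can reach 0.05, so the order is given by how many pups shared a direction and by whether the ranges met.

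Single cells showed the same separation of the ligands. Among the 73423 cells thinned to 4000 UMIs, an Ihh UMI was found in 1280, a Pthlh UMI in 2076 and both in 2. Of the cells with Ihh, 70.9% also had Pth1r, against 10.8% of the cells without it (means over pups, higher in 5 of 5). Both transcripts were richest in the same clusters. Within prehypertrophic-like chondrocytes the shares with Pth1r were nearer to each other, at 87.2% against 74.8%, and again in the same direction in 5 of 5 pups.

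Ptch1 ran the other way within that class, with a UMI in 31.7% of the cells with Ihh and 46.5% of those without it, lower in 5 of 5 pups. In resting-like chondrocytes, Ptch1 was found in 31.1% of the 540 cells with Pthlh and in 16.3% of those without, and Gli1 in 18.1% against 8.47%, both higher in 5 of 5 pups. In articular-like chondrocytes the Ptch1 shares were 26.1% and 19.2%, also in 5 of 5 pups, whereas the Gli1 shares were 11% and 11.4%. Clusters within the resting-like class differ in both genes, and the part of that mix in the shares was not tested. The part of the mix of clusters in the articular-like shares was not tested either.

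Among the response genes, Hhip was found in 46.3% of the fibroblast-like cells with Gli1 and 25.3% of those without, and in 42.0% of those with Ptch1 and 25.8% of those without, in 5 of 5 pups each. The fibroblast-like class joins 2 clusters, and the one led by Htra4 is far higher in Hhip than the class. The part of that mix in these shares was not tested. In proliferating-like chondrocytes, Gli1 was found in 20.4% of the cells with Ptch1 and in 16.3% of those without, also in 5 of 5 pups. A single UMI in a thinned cell is a sparse measure, and absence of a UMI does not mean absence of the transcript.

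**Figure D3:**
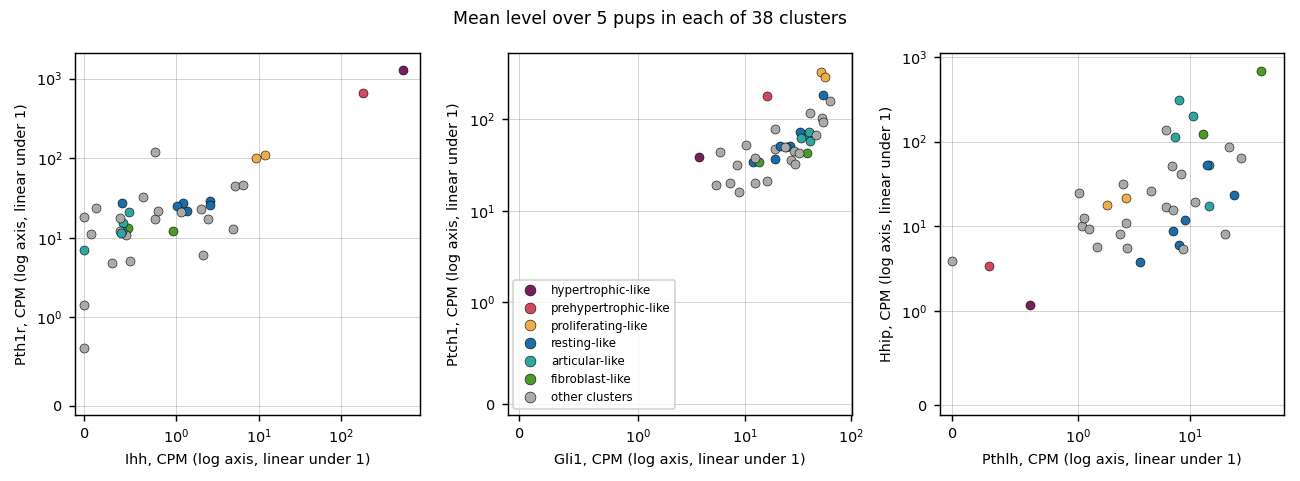
Mean level over 5 pups of 3 pairs of the loop's genes (Ihh with Pth1r, Gli1 with Ptch1, Pthlh with Hhip) in each of the 38 clusters, in CPM on log axes that are linear under 1, with 1 point per cluster coloured by class. Ihh and Pth1r are highest in the same 2 clusters (562 and 1296 CPM, 186 and 665 CPM), and 1 fibroblast-like cluster is highest for both Pthlh (42.6 CPM) and Hhip (688 CPM).

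Across the 38 clusters, which share the same 5 libraries and are therefore not independent points, Ihh and Pth1r had a Pearson r of 0.87 on log2(CPM + 5), Gli1 and Ptch1 of 0.69, Pthlh and Hhip of 0.58, and Pthlh and Ihh of -0.41. Among genes reaching 20 CPM in a cluster, those with the pattern closest to Ihh were Tmie (0.938), Nhej1 (0.933) and Gm28177 (0.932). Nhej1 lies 15466 bases from Ihh on the same strand, and Tmie lies 118565 bases from Pth1r. Those closest to Pth1r were Slc13a5 (0.923), Smpd3 (0.920) and Tmie (0.920), and those closest to Ptch1 were Prr5 (0.816), Pkdcc (0.784) and Irs1 (0.778). For Pthlh the nearest were weaker, ENSMUSG00000120789 at 0.712 and Klf4 at 0.71.

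Hhip was closest to Foxd1 (0.831), Wnt9a (0.808) and Ntn1 (0.807), and Gli1 to Dipk2a (0.850), Gli2 (0.828) and Igf2 (0.812). The patterns nearest to Smo were Zfp354c (0.930), Zfp260 (0.928) and Uggt2 (0.925), and those nearest to Gli2 were Islr (0.895), Mrc2 (0.875) and Igf2r (0.875). Gli3 was nearest to Smo (0.904), Zfp260 (0.890) and Sspn (0.887).

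Whether the loop differed between the labels was asked by summing UMIs per pup in each class and testing all genes with edgeR's quasi-likelihood test, 2 pups labelled WT against 3 labelled mutant, with Benjamini-Hochberg adjustment at 0.05. None of the 9 genes was called in all cells or in any of the 8 classes tested (0 of 75 tests), and neither was any other gene (0% of the genes tested in each comparison). DESeq2 called 48 genes in all cells, 33 in resting-like and 13 in proliferating-like chondrocytes, 13 in perichondrial-like cells, 3 in fibroblast-like, 2 in articular-like, 1 in tendon-like and 0 in the joined hypertrophic-like and prehypertrophic-like chondrocytes and in the Ibsp-led cluster, none of them a gene of the loop. At an unadjusted p under 0.05, 8 of the 75 tests of the loop's genes passed in edgeR, namely 2 in resting-like chondrocytes, 2 in perichondrial-like cells and 1 each in articular-like, proliferating-like, tendon-like and fibroblast-like cells. Over all genes the unadjusted counts were 1101 (6.97%) in resting-like, 1025 (7.87%) in perichondrial-like, 721 (5.14%) in articular-like, 897 (5.49%) in proliferating-like, 643 (4.3%) in tendon-like and 518 (4.16%) in fibroblast-like cells. They were 1169 (5.56%) in all cells, 359 (2.75%) in hypertrophic-like and prehypertrophic-like chondrocytes and 646 (5.89%) in the Ibsp-led cluster, and 0 loop genes passed in each of these 3.

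Proliferating-like and Tgfbi-marked chondrocytes were joined for these tests, and so were hypertrophic-like and prehypertrophic-like chondrocytes. Fibroblast-like cells were added to the tests after their levels were seen. Levels in the tests are CPM after TMM scaling and so differ a little from those above. The 2 labels gave ranges without overlap for 4 of 8 loop genes tested in articular-like chondrocytes, where this held for 22.5% of all genes, and for 4 of 9 in tendon-like cells, against 22.5%. The counts were 3 of 9 in resting-like chondrocytes (24% of all genes), 2 of 9 in proliferating-like chondrocytes (22.4%) and 2 of 8 in perichondrial-like cells (25.8%). They were 1 of 8 in the hypertrophic-like and prehypertrophic-like chondrocytes (18.1%), 1 of 8 in fibroblast-like cells (21.9%), 0 of 7 in the Ibsp-led cluster (25.3%) and 1 of 9 in all cells (22.5%).

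In 3 of these classes some clusters had shares that did not overlap between the labels, and these shares were not tested. Tgfbi-marked cells were 24.5% and 24.9% of the joined proliferating-like class in pups 1 and 2 and 42.4%, 38.6% and 33.2% in pups 3, 4 and 5. The cluster led by H2-DMa was 61.3% and 61.8% of it against 46.4%, 45.5% and 54.8%. In the resting-like class the cluster led by Chil1 was 24.5% and 26.7% against 34.8%, 38.7% and 41.6%, and the cluster led by Sfrp5 was 10.4% and 10.5% against 3.11%, 0.208% and 5.77%. In the articular-like class the cluster led by Cytl1 was 24.5% and 30.4% against 33%, 36.9% and 38.2%. The resting-like class joins 6 clusters and the articular-like class 5. All other clusters in the tested classes that join several clusters overlapped between the labels, among them all 5 tendon-like, 2 perichondrial-like and 2 fibroblast-like clusters. With 2 pups against 3, shares can separate without any label effect. Shares within 1 class add up to a whole, so they are not independent.

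Ihh in the cells richest in it did not separate by label. In the joined hypertrophic-like and prehypertrophic-like chondrocytes it stood at 156 and 281 TMM-scaled CPM with the WT label and 304, 261 and 203 with the mutant label. The log2 difference, mutant minus WT, was 0.23, with a 95% interval from -0.47 to 0.93 (edgeR, adjusted p = 0.999). Those cells made up 2.01% and 3.03% of the cells with the WT label and 3.30%, 2.11% and 1.61% with the mutant label, a difference of -0.180 percentage points (2-sided exact permutation test over 10 groupings, p = 0.8, where the smallest possible is 0.1).

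In the proliferating-like chondrocytes the low Ihh level was higher with the mutant label, at 5.51 and 5.68 TMM-scaled CPM against 14.8, 12.4 and 6.76. The log2 difference was 1.01 (SE 0.31, unadjusted p = 0.012, edgeR adjusted p = 0.845), and it was not called. Without the Tgfbi-marked cells it was 1.19 (adjusted p = 0.817), with a mitochondrial limit of 20% it was 0.41, with another Leiden seed 0.63, and over only the pups whose libraries lack Xist, 2 labelled WT and 1 labelled mutant, it was 0.28. The pups did not overlap, pup 5 lying close to the pups labelled WT and carrying, like them, almost no Xist. Whether this difference goes with label or with sex was not tested. Of the 4 classes in which Ihh was tested, 2 gave a difference above 0. Resting-like and tendon-like cells gave -0.53 and -1.34 (edgeR, adjusted p = 0.751 and 0.921), with overlap and at levels under the blood lineage mean. Label effects were also compared between the joined hypertrophic-like and prehypertrophic-like chondrocytes and the resting-like ones, where Ihh, at 1.62 ± 0.615 CPM, lay under the blood lineage mean of 3.33 CPM, so that no value of this test is given for it. None of the 9 genes was called in that test (0% of all genes by edgeR, with 512 or 3.16% at an unadjusted p under 0.05, and 1 gene by DESeq2).

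Pthlh did not pass in any class with all 5 pups. The widest difference was in perichondrial-like cells, at 12.2 and 9.36 TMM-scaled CPM with the WT label and 14.9, 12.1 and 30.0 with the mutant label, a log2 difference of 0.79 with an interval from -0.28 to 1.86 (edgeR, adjusted p = 0.681). The pups overlapped, and pup 5 alone stood apart. Without pup 5 the log2 difference was 0.35, and at a Leiden resolution of 0.8 it was 0.30. Over the pups lacking Xist, where pup 5 is the only one labelled mutant, it was 1.48 and was called (edgeR, adjusted p = 0.0415), in a fit that takes its spread from the pair labelled WT and assumes that pup 5 varies likewise. In resting-like chondrocytes the values were 11.4, 9.39, 8.55, 13.1 and 14.0 in pups 1 to 5, with overlap. In tendon-like cells they were 7.21 and 6.28 against 7.25, 7.58 and 9.84, without overlap, a log2 difference of 0.27 (edgeR, adjusted p = 0.921). Of the 6 classes in which Pthlh was tested, 4 gave a difference above 0. Fibroblast-like cells and proliferating-like chondrocytes gave -0.25 and -0.24, both with overlap.

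Pth1r was lower in all 3 pups labelled mutant than in both labelled WT in 4 classes where its level is low. Over all genes, such a drop without overlap was seen for 12.3% in resting-like, 12.2% in articular-like, 13.8% in perichondrial-like and 11.9% in tendon-like cells, and for 9.85% in hypertrophic-like and prehypertrophic-like chondrocytes, where no loop gene showed it. In resting-like chondrocytes the values were 32.2 and 27.9 TMM-scaled CPM against 24.0, 20.4 and 21.9, a log2 difference of -0.44 (SE 0.11, unadjusted p = 0.0045, edgeR adjusted p = 0.579). In articular-like chondrocytes they were 21.1 and 17.4 against 13.5, 14.3 and 13.4, a log2 difference of -0.49 (SE 0.13, unadjusted p = 0.0050, adjusted p = 0.862). Perichondrial-like and tendon-like cells gave -0.40 and -0.41, with edgeR adjusted p of 0.602 and 0.921. Left without the Sfrp5-led or the Chil1-led cluster, the resting-like class gave -0.44 and -0.39, the articular-like class without the Cytl1-led cluster gave -0.53, and the tendon-like class without the cell cycle cluster gave -0.45.

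These 4 classes come from the same 5 pups and are not independent. Pth1r there lay in the range of the blood lineage cells, where pups 1 and 2 held 11.1 and 37.6 CPM and pups 3, 4 and 5 held 21.5, 17.5 and 13.8 CPM and did not separate by label. The median depth was lower in every pup labelled mutant, and its part in this difference was not tested. In the joined hypertrophic-like and prehypertrophic-like chondrocytes, where most of the transcript lay, the difference was -0.23 with an interval from -0.84 to 0.39, and in proliferating-like chondrocytes it was 0.22, from -0.21 to 0.65.

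Smo was higher in all 3 pups labelled mutant in 6 of 8 classes, by small amounts. Such a rise without overlap was seen for 11.8% of all genes in resting-like, 10.4% in articular-like, 9.93% in proliferating-like, 8.2% in hypertrophic-like and prehypertrophic-like, 12% in perichondrial-like and 10.6% in tendon-like cells. In resting-like chondrocytes it stood at 164 and 153 TMM-scaled CPM against 173, 194 and 185, a log2 difference of 0.22 (SE 0.097, edgeR adjusted p = 0.710). The other classes gave log2 differences between 0.09 and 0.17, and in the Ibsp-led cluster and the fibroblast-like cells the pups overlapped. In the proliferating-like class the 0.09 became -0.02 without the Tgfbi-marked cells, whose share of the class did not overlap between the labels. Gli3 did not overlap in resting-like chondrocytes (0.21, unadjusted p = 0.040, edgeR adjusted p = 0.710) or articular-like chondrocytes (0.12, adjusted p = 0.871).

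For Ptch1 and Gli1 the difference between the labels was within the spread of the pups in the class where each was highest among those tested. Ptch1 in proliferating-like chondrocytes stood at 266 and 309 TMM-scaled CPM against 269, 265 and 314. Gli1 there stood at 49.0 and 61.0 against 60.9, 47.2 and 55.4. Both overlapped. Ptch1 was higher in perichondrial-like cells by a log2 of 0.39 (unadjusted p = 0.039, edgeR adjusted p = 0.628), with pup 3 below pup 2. The pups did not overlap for Ptch1 in articular-like chondrocytes, at 56.0 and 54.9 against 57.4, 68.1 and 73.9, a log2 difference of 0.26 (unadjusted p = 0.0596, edgeR adjusted p = 0.862). Nor did they for Gli1 in tendon-like cells, at 26.0 and 27.6 against 29.6, 28.1 and 32.2, a log2 difference of 0.16 (adjusted p = 0.921).

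Hhip in fibroblast-like cells, its highest class, stood at 184 and 226 TMM-scaled CPM against 234, 246 and 300.2. The pups did not overlap, as for 10.9% of all genes in this direction, and pups 2 and 3 lay close together. The log2 difference was 0.33, with an interval from 0.03 to 0.64 (edgeR, unadjusted p = 0.034, adjusted p = 0.948). In articular-like chondrocytes Hhip stood at 53.1 and 137 against 162, 85.9 and 75.4, with overlap.

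**Figure D4:**
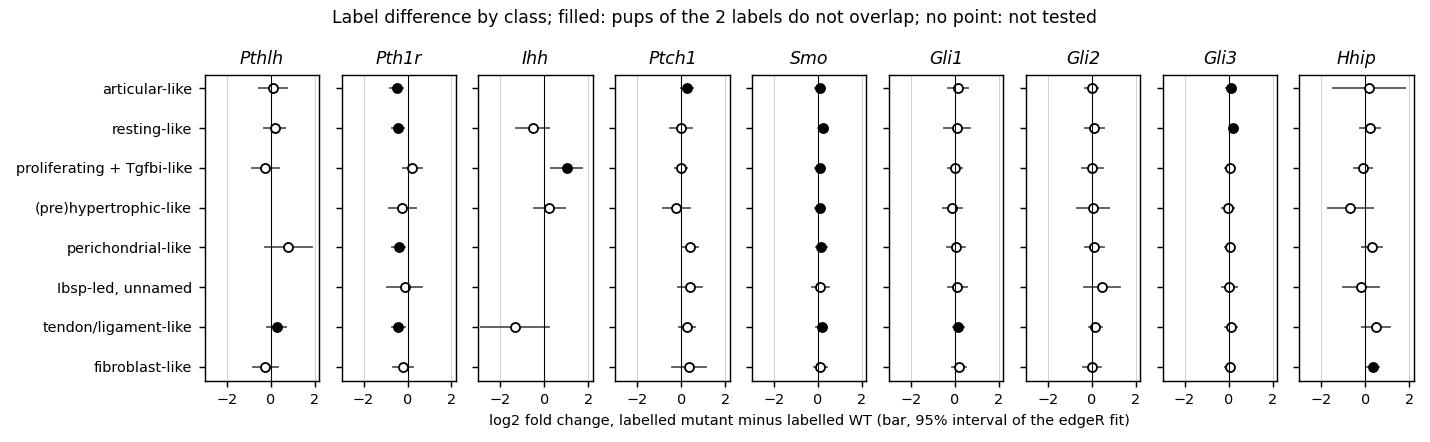
Log2 difference between pups labelled mutant and WT (mutant minus WT) for each gene of the loop in each tested class, with the 95% interval from edgeR as bars and a line at 0, filled where the pups of the labels do not overlap and without a point where the gene was not tested. Intervals for Pth1r lie below 0 in 4 classes, and those for Ihh in proliferating-like chondrocytes, Ptch1 in perichondrial-like cells, Gli3 in resting-like chondrocytes and Hhip in fibroblast-like cells lie above 0, and no gene passed after adjustment over all genes.

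Of 90 other genes of both pathways, listed by role and without the 9, 89 were in the files and 87 could be tested in all cells. None was called in any class in either direction. The median log2 difference of the list was 0.07 in all cells, 0.06 in resting-like and -0.01 in hypertrophic-like and prehypertrophic-like chondrocytes, against medians over all genes tested of -0.02, -0.0048 and -0.0033. Of the 12 hedgehog response genes in the list, the number with a fitted log2 difference above 0 was 9 of 10 tested in resting-like (median 0.32), 8 of 10 in tendon-like (0.23), 9 of 11 in proliferating-like (0.18), 7 of 9 in articular-like (0.16) and 6 of 8 in hypertrophic-like and prehypertrophic-like cells (0.13). It was 5 of 9 in perichondrial-like cells (0.09), 4 of 8 in fibroblast-like cells (0.04), 3 of 8 in the Ibsp-led cluster (-0.03) and 9 of 12 in all cells (0.16). Over all genes tested, the share above 0 ran from 9806 of 21024 in all cells to 7559 of 14965 in tendon-like cells. At an unadjusted p under 0.05, 2 of the response genes passed in each of the resting-like, proliferating-like and articular-like chondrocytes, 1 each in tendon-like cells and all cells, and 0 in the other classes. Over all genes the shares were 6.97% in resting-like, 5.49% in proliferating-like, 5.14% in articular-like and 4.3% in tendon-like cells and 5.56% in all cells. Such passes were not particular to the response genes, as other roles in the list reached similar or higher counts. The loop's own response genes, left out of this list, gave -0.0096 (Ptch1), 0.088 (Gli1) and 0.21 (Hhip) in resting-like chondrocytes, each with overlap. Sfrp1, among the 12, is a leading gene of the Chil1-led resting-like cluster, whose share was higher with the mutant label. The part of that mix was not tested.

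The other roles in the list were mixed. Of the 25 genes of hedgehog transduction and the cilium, 10 of 25 tested lay above 0 in each of resting-like, articular-like and tendon-like cells, 8 of 23 in hypertrophic-like and prehypertrophic-like chondrocytes and 17 of 25 in fibroblast-like cells, with medians from -0.03 to 0.07 over the classes. Of the 17 genes of hedgehog ligands, release and coreceptors, between 4 of 13 (hypertrophic-like and prehypertrophic-like) and 9 of 14 (tendon-like) lay above 0, with medians from -0.04 to 0.06. Of the 26 genes of PTHrP receptor signalling, between 10 of 22 (hypertrophic-like and prehypertrophic-like) and 17 of 22 (articular-like) did, with medians from -0.0050 to 0.11. Of the 10 PTHrP response and hypertrophy factors, 10 lay above 0 in fibroblast-like and tendon-like cells and in all cells, 6 in resting-like and 3 in hypertrophic-like and prehypertrophic-like chondrocytes, with medians from -0.03 to 0.21. At an unadjusted p under 0.05 (edgeR), transduction and cilium genes reached 4 of 25 in proliferating-like chondrocytes. Ligand, release and coreceptor genes reached 3 of 15 in articular-like chondrocytes. PTHrP receptor signalling genes reached 3 of 22 in articular-like and fibroblast-like cells, and the PTHrP response and hypertrophy factors at most 1 of 10. Each of these roles had classes with 0.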

How the data were processed

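The authors counted UMIs per gene and cell in each of 5 libraries, 1 per pup, and deposited these UMI counts without normalization. The genome was mm10 per the labels, and the aligner, annotation and strand setting are not given in the sources used here. Cells with 200 to 6000 genes and at most 10% mitochondrial UMIs were kept, after the study's methods. Analytic Pearson residuals (theta 100) of 3000 genes within each pup, 50 principal components, 20 neighbours and Leiden clustering (resolution 1.5, seed 1; scanpy 1.11.5, leidenalg 0.10.2) gave the clusters. The features left out the 9 genes, their pathway list, and mitochondrial, Xist and Y-linked genes. A class was scored by the mean over its markers of log2(CPM + 5), as z values over clusters capped at 3. Classes within 0.6 of the best score, a window widened after the data were seen, were tried in order, and a name needed 3 markers detected in 10% of the cells. Of the 35 names, 9 did not go to the highest score. The osteoblast class planned for a test could not be formed in the main clustering. The Ibsp-led cluster was tested in its place, a choice made, as for the fibroblast-like cells, after its values were seen.

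Levels are UMIs summed per class and pup, scaled to a common total (raw CPM), with the mean ± SD over pups. Shares of cells with a UMI were taken after thinning each cell to 4000 UMIs, leaving out shallower cells (432 blood lineage, 1133 resting-like, 2809 articular-like, 7 prehypertrophic-like and 4 hypertrophic-like cells). These values cover counting and pup-to-pup error only. Labels were compared with edgeR 4.0.16 (TMM, filterByExpr, robust quasi-likelihood test, Benjamini-Hochberg adjustment over all genes tested) in R 4.3.3, classes with under 10 cells in a pup being left out, and with DESeq2 1.42.0 as an alternative. Label effects were compared between classes in a fit with pup as a block. The tests were tested on simulated data. The 9 genes, the pathway and marker lists and the tests were chosen with earlier results of these data known. Genes named beside the 9 were to be pathway genes past the threshold, of which there were none, and the 3 genes most like each of the 9 over the clusters. Cluster-leading genes named in the text were read off after the clusters were formed. P-values set a difference between the labels against the spread between littermates. With 1 library per pup, the spread of pups and that of libraries cannot be told apart. Sex and depth partly coincide with the label, so a difference between the labels cannot be told apart from them.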

Additional observations from a re-analysis of the deposited data

How the results depend on the processing

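The count of loop genes called was 0 in 126 of 127 combinations of class and alternative, and 0 in 14 of 14 for the difference of label effects between classes. The exception was perichondrial-like cells over only the pups whose libraries lack Xist (2 labelled WT against 1 labelled mutant, whose spread is assumed to be that of the pair, as for the lone WT pup in fits without the other), with 1 gene called, Pthlh, at a log2 difference of 1.48 (edgeR, adjusted p = 0.0415). The adjusted p of Pthlh there ranged from 0.0415 to 0.998 over all alternatives, and it rested on pup 5, without which the log2 difference was 0.35. Over all 75 pairs of gene and class, 100 of 1064 recomputed log2 differences changed sign, none of them called. For the 23 pairs with their alternatives set out here, 22 of 342 changed sign. Leaving out 1 pup gave a range of -0.48 to 0.10 for Pth1r and -0.13 to 0.73 for Ihh in hypertrophic-like and prehypertrophic-like chondrocytes, -0.12 to 0.089 for Ptch1 and -0.16 to 0.15 for Gli1 in proliferating-like chondrocytes, -0.058 to 0.29 for Gli2 in resting-like and -0.35 to 1.02 for Hhip in articular-like chondrocytes and 0.20 to 0.49 for Hhip in fibroblast-like cells. Over only the pups lacking Xist the same values were -0.11 for Ihh (0.28 in proliferating-like chondrocytes), 0.13 for Ptch1, 0.012 for Gli1 and -0.33 for Hhip in articular-like chondrocytes, and 0.35 for Pthlh in fibroblast-like cells, which was -0.25 with all pups. A Leiden resolution of 0.8 gave 0.10 for Pth1r in hypertrophic-like and prehypertrophic-like chondrocytes. In proliferating-like chondrocytes that resolution gave 0.044 for Ptch1 and -0.038 for Smo. Leaving out Tgfbi-marked cells gave 0.040 for Ptch1 and -0.017 for Smo there, and DESeq2 gave 0.00033 for Gli1. The cause of these changes was not tested. Pth1r in resting-like, articular-like, perichondrial-like and tendon-like cells stayed below 0 under each of their 14 to 16 alternatives. Ihh in proliferating-like chondrocytes stayed above 0, between 0.28 and 1.29, with an adjusted p from 0.215 to 1.00.

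The difference in the share of hypertrophic-like and prehypertrophic-like cells was -1.95 percentage points at a resolution of 0.8 and lay between -0.690 and 0.331 when 1 pup was left out. At resolutions of 0.8 and 2.5 the name hypertrophic went to other clusters, in which Ihh was at 5.26 and 0 CPM and Pth1r at 48.3 and 65.4 CPM. An osteoblast-like class was named at these resolutions, with Pth1r at 283 and 274 CPM and Hhip at 108 and 140 CPM. Of the named classes there, only prehypertrophic-like cells were higher in Pth1r and only fibroblast-like cells in Hhip. Under the alternatives in which the osteoblast-like class could be tested, none of the loop genes tested was called in it. The count of all genes called moved from 0 with the processing, without the filter on low counts to 189 in perichondrial-like, 50 in articular-like, 47 in the Ibsp-led, 28 in proliferating-like, 23 in fibroblast-like, 18 in resting-like and 18 in hypertrophic-like and prehypertrophic-like cells and 103 for the difference between classes. It moved with a pup left out to at most 23, over the pups lacking Xist to at most 49, and under DESeq2 to the counts given above. The alternatives of the difference between classes, the tests of fibroblast-like cells, the removal of the 5% highest doublet scores and the omission of single clusters or of Tgfbi-marked cells were chosen after seeing the data. Of the 75 intervals, 8 lay on one side of 0 before adjustment, and the part of depth in their width was not tested. No paired analysis was possible because pups of different labels share no number.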
